A study of Mus musculus with 24 samples.

Results

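The 10 genes described here encode proteins through which pancreatic islet cells touch, adhere to and signal to their neighbours. They were chosen by name, with earlier results of these data known. The genes were found by their symbols in the first column of the deposited count table, as 10 of its 41549 genes. They comprise the cadherins Cdh1 and Cdh2, the tight junction genes Cldn4 and Tjp1, the gap junction gene Gjd2, the immunoglobulin-type adhesion molecules Ncam1, Nrcam and Cadm1, and the ephrin pair Efna5 and Epha5. All 10 had enough counts to be tested, among 15916 genes tested.

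The transcriptome of islet cells from wild-type mice was measured by mRNA sequencing in 24 libraries. Before culture the islets had been dispersed into single cells with EGTA and trypsin, which breaks the contacts between them. All cells were transfected with 50 pmol of an antisense oligonucleotide (ASO), either a control (Ctr) or the αGlu ASO, which is directed against the 5′tRF from tRNA-Glu(CTC), a fragment made of the front part of this tRNA. The cells were then kept for 48 h either with 0.5 mM palmitate (PA), a saturated fatty acid, bound to bovine serum albumin (BSA), or with 0.75% BSA alone. The 4 groups of ASO and fatty acid (Ctr with BSA or PA, αGlu with BSA or PA) had 6 libraries each, with 3 in batch 1 (S1 to S12) and 3 in batch 2 (S13 to S24). What distinguishes the batches is not recorded, and the labels do not give the age of the mice. By the methods, a repeat is a separate islet preparation and its groups share an animal, but the labels do not say which libraries form a repeat. The comparisons below are therefore unpaired, with a term for batch. Each run of 4 consecutive library numbers holds 1 library of every group, and a fit with these 6 sets as a replicate block is given where it changed a call. That a set is 1 preparation is an assumption made after seeing the data.

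Cadherins hold neighbouring cells together by binding one another through calcium, and they are tied to the actin skeleton by catenins. In the islet, E-cadherin and N-cadherin join endocrine cells, and connexin 36, the product of Gjd2, forms the gap junctions through which β-cells share electrical activity and calcium waves. Immunoglobulin-type molecules such as NCAM take part in how endocrine cell types sort within the islet, and EphA receptors and ephrin-A ligands pass signals between touching β-cells.

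The αGlu ASO and the stretch it pairs with are shown because they define one of the compared treatments. Capitals mark the bases that pair, and both sequences run 5′ to 3′.
αGlu ASO: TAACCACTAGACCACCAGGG
5′ end of the targeted fragment: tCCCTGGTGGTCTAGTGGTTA
None of the 10 genes held the whole 20-base stretch in its GENCODE transcripts (GRCm38). The longest run of it was 10 bases in Ncam1, 9 bases in Epha5 and 7 or 8 bases in the others. Of all 55450 annotated genes, 2.12% held a run of 10 or more bases and 28.3% one of 8 or more.

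Promoter sequences were found in the RefSeq table (GRCm38.p6) for 6 of the 10 genes, Gjd2, Epha5, Cldn4, Tjp1, Nrcam and Efna5. The 250 bases before the start are shown for Cldn4 and Nrcam, whose levels differed most between the batches. Those of Gjd2 are also shown, as its difference between PA and BSA in Ctr cells passed, though only at the threshold. Capitals mark any match, on either strand, to the E-box CACCTG that Snail and ZEB factors bind, to the GC box GGGCGG bound by SP1, or to the nuclear receptor half-site AGGTCA. No match overlapped another one.
Cldn4, chr5:134946935-134947184 (- strand): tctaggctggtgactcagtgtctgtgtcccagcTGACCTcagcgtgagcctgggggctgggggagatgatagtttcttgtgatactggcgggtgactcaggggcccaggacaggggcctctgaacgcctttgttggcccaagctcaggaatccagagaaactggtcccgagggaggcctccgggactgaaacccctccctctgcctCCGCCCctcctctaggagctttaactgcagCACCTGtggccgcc
Nrcam, chr12:44328635-44328884 (+ strand): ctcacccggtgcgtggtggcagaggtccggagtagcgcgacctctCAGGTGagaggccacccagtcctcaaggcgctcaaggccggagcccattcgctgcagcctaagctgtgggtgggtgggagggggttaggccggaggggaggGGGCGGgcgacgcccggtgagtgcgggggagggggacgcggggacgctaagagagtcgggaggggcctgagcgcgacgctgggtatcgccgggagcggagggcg
Gjd2, chr2:114013620-114013869 (- strand): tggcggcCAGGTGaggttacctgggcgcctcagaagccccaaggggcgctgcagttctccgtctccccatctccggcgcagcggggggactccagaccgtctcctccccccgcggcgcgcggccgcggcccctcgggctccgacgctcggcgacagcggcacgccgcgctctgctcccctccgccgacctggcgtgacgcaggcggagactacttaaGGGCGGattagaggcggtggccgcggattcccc
The Cldn4 window held 1 match to each of the 3 motifs, while those of Nrcam and Gjd2 held 1 E-box and 1 GC box and no half-site. The windows not shown, of Epha5, Tjp1 and Efna5, held no E-box and no half-site, and 2, 2 and 4 GC boxes. The Tjp1 window, chr7:65371245-65371494, lies inside the GENCODE span of the gene. No GENCODE transcript of Tjp1 held the first 20 bases after this window. Of 32841 promoters of the same length in the table, 17.2% held the E-box, 32.7% the GC box and 14% the half-site. The share of G and C was 62% for Cldn4, 72.4% for Nrcam and 74% for Gjd2, against a median of 52.4%. The Cldn4 window contained 7 CG steps, close to the median of 6, whereas that of Nrcam contained 25 and that of Gjd2 contained 33. These matches describe letters only, and no binding was measured.

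Library totals ran from 18214719 to 35001979 counts. Library S1 (Ctr BSA) had the lowest total, a TMM scaling factor of 0.8526 where the others had 0.9388 to 1.064, and the lowest deposited TPM for 8 of the 10 genes. In CPM, counts scaled by TMM to the same library size, used for all comparisons between libraries, it was lowest for 1 of the 10. The tissue label was checked against marker genes. The 10 β-cell markers, Ins1 and Ins2 among them, summed to 84080 to 152100 CPM over all libraries, and the 10 acinar markers to 303.3 to 23630 CPM, so the islet cells came with exocrine RNA in a variable amount. In bulk RNA, fewer cells of a type and less RNA per cell cannot be told apart.

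Levels were compared between genes with the deposited TPM, which accounts for transcript length. Averaged over all 24 libraries, Cldn4 was highest, with 424.3 ± 252.0 TPM (SD, n = 24), followed by Cdh1 with 392.2 ± 82.22. These were neighbours that could not be ordered, as Cldn4 was above Cdh1 in 12 of 24 libraries. Next came Gjd2 with 176.9 ± 24.97 TPM, Tjp1, the scaffold that ties tight junction strands to actin, with 99.33 ± 16.23, and Cdh2 with 55.65 ± 5.175. Each of these was above the next gene in 24 of 24 libraries, although the ranges of Gjd2 and Tjp1 and of Tjp1 and Cdh2 overlapped across libraries. Ncam1 followed with 29.4 ± 3.749 TPM and Nrcam with 10.93 ± 2.919. Efna5, at 6.863 ± 0.9971 TPM, and Cadm1, at 6.49 ± 1.575, were again close, with Efna5 above Cadm1 in 14 of 24 libraries. The receptor Epha5 was near the detection limit, with 0.07895 ± 0.06722 TPM and only 2 to 47 reads a library, whereas its ligand Efna5 had 169 to 401 reads. The top of this order belonged to the batch. In batch 1, Cldn4 led with 648.2 ± 147.1 TPM over Cdh1 with 453.2 ± 73.8 (n = 12), and in batch 2 Cdh1 led with 331.2 ± 23.7 and Cldn4 had 200.4 ± 41.98, without overlap.

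**Figure D1:**
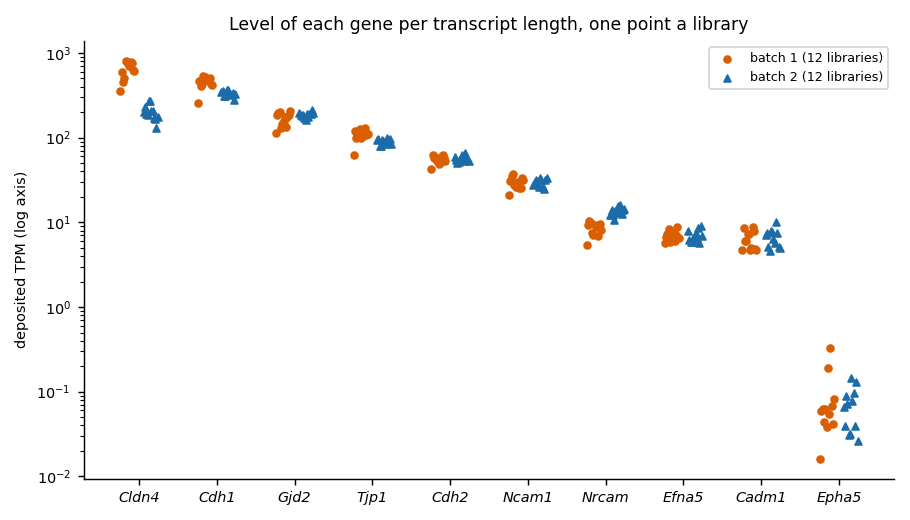
Deposited TPM of each gene on a log axis, with 12 libraries of batch 1 as circles and 12 of batch 2 as triangles. The genes span from Cldn4 and Cdh1, at 131.1 to 812.1 TPM, down to Epha5, at 0.0161 to 0.331 TPM, and Cldn4 and Nrcam are split by batch.

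The first comparison asked which of these genes responded to PA, in cells with the Ctr ASO. Cadm1 fell and Ncam1 and Gjd2 rose, so that 3 of the 10 genes passed an adjusted p below 0.05 (edgeR's quasi-likelihood test on all 24 libraries with a term for batch, Benjamini-Hochberg over all genes). This share equals the background, since 30% of all tested genes passed (15.5% higher and 14.5% lower), and no gene of the 10 changed more than 2-fold with an unadjusted p below 0.05, the study's rule, which called 5.91% of all genes. In αGlu cells Cadm1 fell and Ncam1 rose, 2 of the 10 genes, where 28.5% of all genes passed (14.4% higher and 14.2% lower). The same rule called 5.57% of all genes there, and none of the 10. The median log2 fold change of the 10 genes was 0.0048 in Ctr and -0.014 in αGlu cells, and over all genes it was 0.0074 and 0.0055.

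**Figure D2:**
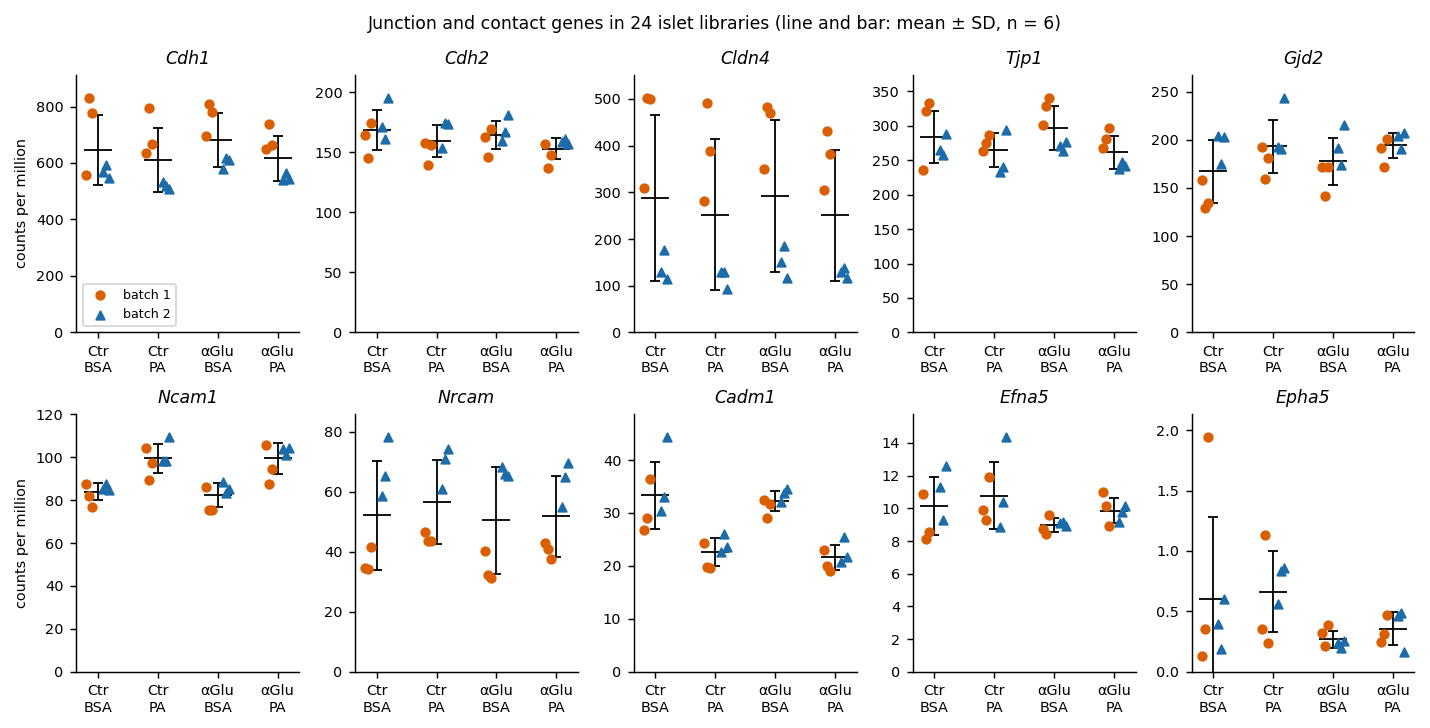
CPM of each gene in every library by group, with batch 1 as circles, batch 2 as triangles, and the mean ± SD of 6 libraries as line and bar. Cadm1 sits lower and Ncam1 higher in the PA groups, while Cldn4 and Nrcam are separated by batch within every group.

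Cadm1, also called SynCAM1, is a homophilic adhesion molecule of synapses and endocrine cells. It lies on chr9:47530173-47857637 (+ strand, GRCm38). Its level was 26.87, 31.71 and 44.31 CPM (lowest, median and highest of 6 libraries) in Ctr BSA and 19.53, 23.05 and 26.08 CPM in Ctr PA. In αGlu BSA it was 29.05, 32.3 and 34.6 CPM, and in αGlu PA 18.97, 21.18 and 25.37 CPM. Every PA library was below every BSA library with the same ASO. Groups without overlap, in either direction, were seen for 5.82% of all genes in Ctr and 8.12% in αGlu cells. The log2 fold change was -0.56 in Ctr (SE 0.089, edgeR adjusted p = 4.084e-05), a decrease to 0.6784 of the BSA level with a 95% interval of 0.5974 to 0.7704. In αGlu cells the log2 fold change was -0.58 (SE 0.089, edgeR adjusted p = 2.915e-05). The drop was present in each batch taken alone, at -0.55 in batch 1 and -0.58 in batch 2 for Ctr and at -0.59 and -0.56 for αGlu cells, and it passed the threshold in each. PA accounted for 74.78% of the variance of its log2 CPM and batch for 6.011%.

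Ncam1 encodes the neural cell adhesion molecule, which endocrine islet cells carry on their surface. The gene lies on chr9:49502136-49798925 (- strand), the chromosome that also carries Cadm1. It was at 77.02, 84.8 and 87.61 CPM in Ctr BSA and at 89.34, 98.24 and 109.3 CPM in Ctr PA. The αGlu BSA libraries had 75.39, 84.25 and 88.63 CPM and the αGlu PA libraries 87.34, 102.4 and 105.7 CPM. The groups did not overlap in Ctr cells, and in αGlu cells they overlapped over both batches together but not within either batch. For separations within a single batch, here and for the genes below, the share of all genes is not given. Such separations are therefore not set against all genes. The increase was small and even, with a log2 fold change of 0.25 in Ctr (SE 0.051, edgeR adjusted p = 0.0007145) and 0.27 in αGlu cells (SE 0.051, edgeR adjusted p = 0.0002583). With batch 1 alone the changes were of like size, 0.23 and 0.27, but missed the threshold (edgeR adjusted p = 0.1316 and 0.09149). An antisense transcript, Gm11149, touches an exon of Ncam1 on the other strand and had 2 counts over all libraries.

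Gjd2, on chr2:114009601-114013619 (- strand), was at 128.9, 166.4 and 204.1 CPM in Ctr BSA and at 159.4, 191.0 and 243.4 CPM in Ctr PA. In αGlu BSA it was at 141.9, 172.6 and 215.2 CPM, and in αGlu PA at 171.5, 196.4 and 206.7 CPM. The groups overlapped, except in batch 1 with the Ctr ASO, where all 3 PA libraries were above the 3 BSA libraries. The log2 fold change was 0.22 in Ctr (SE 0.083), and its edgeR adjusted p of 0.04902 lay at the threshold. The call was lost with upper-quartile scaling (edgeR adjusted p = 0.07924), a stricter count filter (0.05152), these 2 groups alone (0.09061) and without the batch term (0.2337). It was lost in either batch alone, where the changes were 0.33 and 0.10. It was also lost in 13 of the 24 fits that left out 1 library (S2 to S5, S8 to S11, S14, S16, S17, S23 or S24), with edgeR adjusted p-values of 0.02827 to 0.1284 over all 24. DESeq2 (adjusted p = 0.03843) and a fit with no filter (edgeR adjusted p = 0.04048) kept the call. With the replicate block it was kept (edgeR adjusted p = 0.007893). In αGlu cells the log2 fold change was 0.14, with a 95% interval of -0.035 to 0.31. Averaged over both ASOs, a contrast chosen after seeing the data, the change was 0.18 (edgeR adjusted p = 0.01628), where 45.4% of all genes passed. The transcript A530058N18Rik overlaps an exon of Gjd2 on the other strand, and the sources used here do not state whether the authors counted by strand.

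The epithelial junction genes Tjp1, Cdh1 and Cldn4 had lower estimates with PA, which did not pass in the unpaired fit. With the assumed sets as a replicate block, 4 of the 10 genes passed in Ctr and 5 in αGlu cells (35.3% and 34.1% of all genes), and Cldn4 was lower with both ASOs and Tjp1 and Cdh1 in αGlu cells. Tjp1 (chr7:65296165-65527781, - strand) was at 235.7, 276.8 and 333.5 CPM in Ctr BSA and at 232.4, 269.2 and 293.4 CPM in Ctr PA. With the αGlu ASO it was at 262.8, 289.0 and 340.4 CPM in BSA and at 237.8, 257.3 and 296.3 CPM in PA. All groups overlapped over both batches together. Within each batch every αGlu PA library was below every αGlu BSA library. The share of all genes separated in this way is not given here, so this pattern is not set against all genes. The log2 fold change was -0.10 in Ctr (edgeR adjusted p = 0.2983) and -0.18 in αGlu cells (SE 0.069, edgeR adjusted p = 0.05277), just outside the threshold. Several settings put the αGlu value inside it, among them DESeq2 (adjusted p = 0.02729) and a fit of these 2 groups alone (edgeR adjusted p = 0.002297), as did leaving out S1, S9, S12 or S23 (0.01245 at the lowest). Averaged over both ASOs, Tjp1 passed at -0.14 (edgeR adjusted p = 0.02273), and in the fit with the replicate block the αGlu value was -0.18 (edgeR adjusted p = 0.01255).

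Cdh1, which encodes E-cadherin (chr8:106603351-106670246, + strand), had 547.1, 578.9 and 830.2 CPM in Ctr BSA and 509.1, 584.2 and 796.1 CPM in Ctr PA. In αGlu BSA it had 580.1, 656.4 and 807.4 CPM, and in αGlu PA 540.2, 607.6 and 739.3 CPM. The groups overlapped over both batches, while in batch 2 every PA library was below every BSA library with the same ASO. Its log2 fold change was -0.086 in Ctr (95% interval -0.23 to 0.063) and -0.14 in αGlu cells (-0.29 to 0.0069). With the replicate block the αGlu value passed at -0.14 (edgeR adjusted p = 0.03082), and the Ctr value did not at -0.081 (edgeR adjusted p = 0.2156). Leaving out library S1 gave -0.15 in Ctr, which passed (edgeR adjusted p = 0.04779), as Tjp1 then did at -0.16 (edgeR adjusted p = 0.03077). Without S1, 5 of the 10 genes passed, and the share of all genes in that fit is not given here.

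Cldn4, a claudin of tight junction strands, had log2 fold changes of -0.21 (95% interval -0.51 to 0.090) in Ctr and -0.23 (-0.53 to 0.075) in αGlu cells. With the replicate block these were -0.21 (-0.34 to -0.077, edgeR adjusted p = 0.01361) and -0.22 (-0.35 to -0.084, edgeR adjusted p = 0.01117), both past the threshold. Cdh2, N-cadherin (chr18:16588877-16809246, - strand), had -0.083 (-0.20 to 0.035) and -0.10 (-0.22 to 0.015). Its levels were among the steadiest, from 137.2 to 195.1 CPM over all 24 libraries. Nrcam, a binding partner of ankyrin (chr12:44328885-44601964, + strand), had 0.15 (-0.027 to 0.32) and 0.074 (-0.10 to 0.25). For Efna5 (chr17:62604184-62881317, - strand) the values were 0.093 (-0.14 to 0.32) and 0.13 (-0.094 to 0.36). Epha5 (chr5:84054761-84417382, - strand) had 0.16 (-0.83 to 1.16) and 0.41 (-0.68 to 1.5), intervals that leave room for more than a doubling. In the unpaired fit none of these 5 genes passed with either ASO, and over both batches together their groups overlapped.

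**Figure D3:**
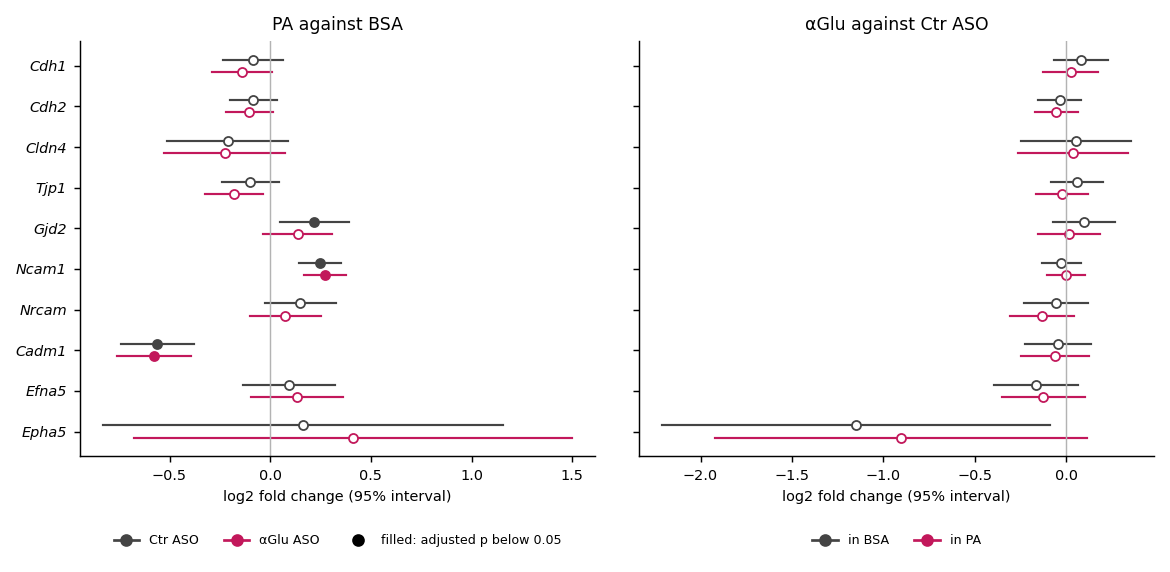
Log2 fold change of each gene with its 95% interval, PA against BSA on the left and αGlu against Ctr on the right, with filled points for an adjusted p below 0.05. Cadm1 and Ncam1 are filled with both ASOs and Gjd2 with Ctr only, no point is filled on the right, and Epha5 has the widest intervals.

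Effects of PA with the Ctr and the αGlu ASO were compared through the interaction term of the fit. None of the 10 genes passed, and 0.0% of all genes did (0 of 15916, with 332 at an unadjusted p below 0.05). The difference between both PA effects ran from -0.083 for Gjd2 (95% interval -0.33 to 0.16) to 0.25 for Epha5 (-1.21 to 1.71). For Cadm1 it was -0.018 (-0.28 to 0.24) and for Ncam1 0.027 (-0.12 to 0.17). The Gjd2 call with Ctr and not with αGlu is therefore not shown to differ between the ASOs.

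Inhibition of the 5′tRF was then compared with the Ctr ASO. In the unpaired fit none of the 10 genes passed in BSA or in PA. No gene of the table did there, 0.0% in both, with 461 genes in BSA and 538 in PA at an unadjusted p below 0.05. Leaving Epha5 aside, the log2 fold changes lay between -0.17 (Efna5, 95% interval -0.40 to 0.063) and 0.097 (Gjd2, -0.075 to 0.27) in BSA. In PA they lay between -0.13 (Nrcam, -0.31 to 0.045) and 0.037 (Cldn4, -0.27 to 0.34). For the cadherins the intervals were narrow, 0.9534 to 1.172 of the Ctr level for Cdh1 and 0.8989 to 1.059 for Cdh2 in BSA.

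Epha5 had the lowest estimate. It was at 0.1289, 0.3761 and 1.941 CPM in Ctr BSA, against 0.1985, 0.246 and 0.3834 CPM with αGlu. In PA it was at 0.2391, 0.6991 and 1.13 CPM with Ctr and at 0.1612, 0.3834 and 0.49 CPM with αGlu. The Ctr libraries spread widely and no αGlu library was above 0.49 CPM, but the groups overlapped. The log2 fold change was -1.15 in BSA (SE 0.51, unadjusted p = 0.03467, edgeR adjusted p = 1.0) and -0.90 in PA (SE 0.49, edgeR adjusted p = 0.9926). By the fold rule of the study, more than 2-fold with an unadjusted p below 0.05, Epha5 was the only one of the 10 genes called in BSA, where this rule called 0.785% of all genes. Without library S9, which alone had 1.941 CPM, the BSA value was -0.32. Markers of Schwann cells and glia were also high in S9, but did not follow Epha5 in every library. The 10 markers summed to 97.59 CPM in S9 and to 9.61 to 34.15 CPM in the other 11 libraries of batch 1. The 34.15 CPM were in S1, which had the lowest Epha5 level, 0.1289 CPM. S21 had the highest sum, 125.0 CPM, with Epha5 at 0.6011 CPM. By group the sums were 13.47 to 125.0 CPM in Ctr BSA, 12.12 to 33.76 in αGlu BSA, 16.76 to 87.93 in Ctr PA and 9.61 to 15.63 in αGlu PA. Their median log2 fold change with αGlu was -2.48 in BSA and -2.64 in PA, with 0 of 10 passing in either. Averaged over BSA and PA, a contrast chosen after seeing the data, 7 of 10 passed as lower, where 0.239% of all genes passed. Of this list, the paper names S100b, Gfap, Foxd3, Gap43, Ngfr and Gpm6b among genes lower with αGlu in PA, from these same data. The count of markers that passed is therefore not independent support. No marker of this list was at 0 in every library, and their part in the Epha5 values was not tested.

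Larger differences were seen between the batches, in both directions. Between batch 2 and batch 1, 8 of the 10 genes passed, 5 higher and 3 lower in batch 2, against 51.5% of all tested genes (26.1% higher and 25.4% lower). As what distinguishes them is not recorded, these values describe the 2 sets of libraries.

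Cldn4 (chr5:134945119-134946934, - strand, a gene of a single exon) was at 282.1, 409.0 and 502.1 CPM in batch 1 and at 93.93, 130.1 and 184.8 CPM in batch 2 (12 libraries each). The batches did not overlap, which held for 6.87% of all genes. The log2 fold change was -1.61 (SE 0.11, edgeR adjusted p = 1.045e-11), a level of 0.3286 of batch 1. It was the only one of the 10 genes that differed by more than 2-fold, as 6.38% of all genes did with an unadjusted p below 0.05, and batch accounted for 89.36% of the variance of its log2 CPM.

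Cdh1 was at 558.1, 717.9 and 830.2 CPM in batch 1 and at 509.1, 556.4 and 616.3 CPM in batch 2, with some overlap and a log2 fold change of -0.36 (SE 0.051, edgeR adjusted p = 2.46e-06). Tjp1 also was lower in batch 2, by -0.18 on the log2 scale (edgeR adjusted p = 0.003267).

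Nrcam went the other way, at 31.16, 40.43 and 46.39 CPM in batch 1 and at 55.0, 65.61 and 78.11 CPM in batch 2. Its batches did not overlap either, and the log2 fold change was 0.77 (SE 0.061, edgeR adjusted p = 1.705e-10). Gjd2 was higher in batch 2 by 0.26 (edgeR adjusted p = 0.0006315), Cadm1 by 0.16 (edgeR adjusted p = 0.03589), Cdh2 by 0.12 (edgeR adjusted p = 0.01865) and Ncam1 by 0.089 (edgeR adjusted p = 0.04183). The calls of Cadm1 and Ncam1 lay near the threshold and were lost in 10 and 13 of the 24 fits that left out 1 library, with edgeR adjusted p-values of up to 0.08073 and 0.08161. For Cadm1 these were the fits without S1, S5 to S8, S11, S12 or S19 to S21, and for Ncam1 those without S5 to S10, S12, S14, S16, S17 or S22 to S24. Efna5 and Epha5 did not pass.

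Markers of other cell types moved with the batch. The 10 ductal markers summed to 1576 to 2754 CPM in batch 1 and 517.6 to 1242 CPM in batch 2, and 8 of the 10 were lower and 1 higher in batch 2. Most of the sum came from Krt8, with means of 959.3 CPM in batch 1 and 317.4 CPM in batch 2, and Krt18, with 722.9 and 230.1 CPM, both named after their values were seen. Krt19 had 155.2 and 18.55 CPM, and Krt7 232.9 and 242.6 CPM. Acinar markers summed to 3201 to 23630 CPM in batch 1 and 303.3 to 685.3 CPM in batch 2, with 9 of 10 lower. All 10 β-cell markers were higher in batch 2, with sums of 84080 to 134000 CPM in batch 1 and 110400 to 152100 CPM in batch 2. No defining marker of these lists was at 0 in every library. Their part in the batch differences of Cldn4, Cdh1, Tjp1, Gjd2 and Nrcam was not tested.

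**Figure D4:**
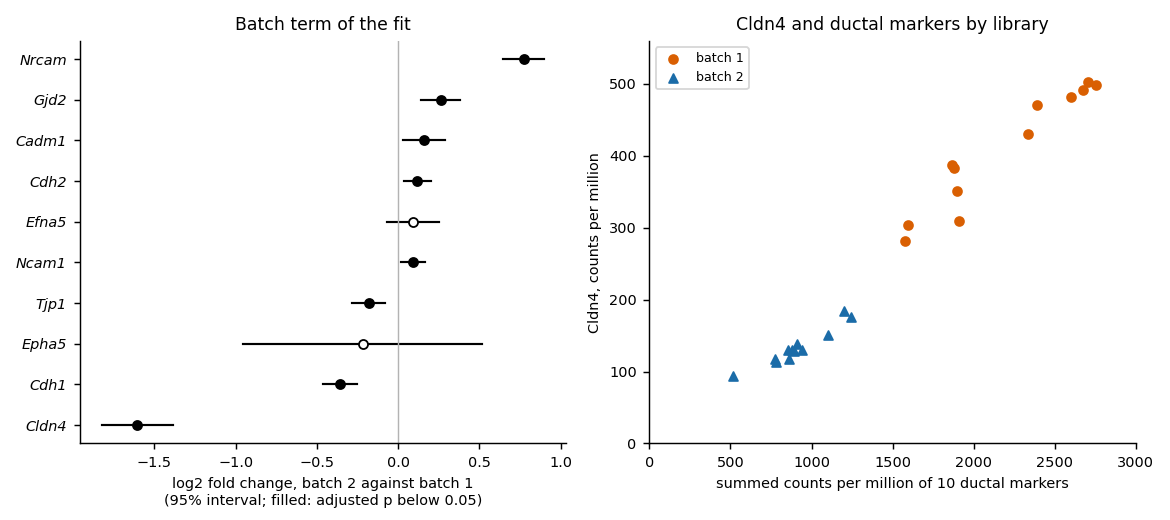
Left, log2 fold change of batch 2 against batch 1 with 95% intervals, filled for an adjusted p below 0.05. Right, Cldn4 CPM against the summed CPM of 10 ductal markers, 1 point a library, where batch 1 (circles) lies at 1576 to 2754 and batch 2 (triangles) at 517.6 to 1242 on the horizontal axis.

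The PA response was next compared between the batches. None of the 10 genes differed, where 0.0565% of all genes did (edgeR adjusted p). Nrcam had the lowest p, with a PA effect that was 0.27 lower on the log2 scale in batch 2 (95% interval -0.51 to -0.038, edgeR adjusted p = 0.70). For Cadm1 the difference was -0.010 (-0.29 to 0.27) and for Ncam1 it was -0.0020 (-0.16 to 0.16).

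To see which genes ran in parallel, log2 CPM centred within each batch was correlated across the 24 libraries with all 15317 genes of at least 10 counts on average. These are the highest of many values and share libraries and depth, so no test is given. Cldn4 was most like Krt18, a keratin of simple epithelia that is also among the ductal markers above (Pearson r = 0.95, n = 24), at 0.97 in batch 1 and 0.94 in batch 2. Cdh1 was most like Dsg2, a desmosomal cadherin (r = 0.91), and Ctnna1, the α-catenin that ties cadherins to actin (r = 0.91). Tjp1 ran closest to Otud4 (r = 0.96), Pik3c2a and Sf3b1. Gjd2 was most like Slc16a10, a transporter of aromatic amino acids (r = 0.92). Ncam1 ran close to Trim35 (r = 0.92) and to Atp6v1d, a subunit of the proton pump of lysosomes and secretory granules (r = 0.91). Cadm1 was closest to Ildr2 (r = 0.92), Enc1 and Sdc3, a syndecan. Cdh2 was closest to the non-coding RNA Ftx (r = 0.82), and Nrcam, Efna5 and Epha5 had no partner above 0.76.

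Among the 10 genes themselves, Cdh1 and Cldn4 had the highest correlation (r = 0.81, n = 24). The lowest were between Gjd2 and Cldn4 (-0.76) and between Ncam1 and Cadm1 (-0.76), the pair that PA moved in opposite directions. Cdh1 and Tjp1 (0.64) and Gjd2 and Ncam1 (0.64) ran together, and Epha5 and Efna5, receptor and ligand, did not (0.051).

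Other genes of the same kinds of contact were taken from 5 lists of adherens and desmosomal, tight and gap junction genes, Eph receptors and ephrins, and immunoglobulin-type and synaptic adhesion molecules. Of 132 genes listed, 112 were tested, and with PA in Ctr cells 10 were higher and 26 lower, 32.14% against 30% of all genes. The lower calls were 23.2% of the 112, against 14.5% of all genes. By the study's fold rule 14 of the 112 were called, 12.5% against 5.91% of all genes. In αGlu cells 8 were higher and 30 lower, 33.93% against 28.5% of all genes, and the lower calls were 26.8% against 14.2%. The median log2 fold change over the 112 genes was -0.16 in Ctr, where the 10 genes described here had 0.0048. The 26 genes that fell had a median level of 13.21 CPM in Ctr BSA, the 10 that rose one of 46.205 CPM, and the 76 not called one of 9.4535 CPM.

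Gap junction genes had the lowest median, -0.67, with 1 higher and 3 lower of 11 tested. Among them Gja1 (connexin 43) fell with a log2 fold change of -2.17, from a mean of 8.26 CPM in BSA to one of 1.824 CPM with PA, while Gjd2 had risen. Of 17 Eph receptors and ephrins 1 was higher and 8 lower, with a median of -0.59. Efnb2 and Epha4 fell, with log2 fold changes of -1.59 and -2.18. Of 27 adherens and desmosomal genes 1 was higher and 5 lower, and Cdh6 fell, with a log2 fold change of -2.25 (edgeR adjusted p = 9.47e-06), from 21.75 ± 7.077 CPM in BSA to 4.661 ± 2.644 CPM with PA (SD, n = 6). The PA effect on Cdh6 in αGlu cells was -2.30.

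Of 33 tight junction genes 3 were higher and 7 lower. Cgnl1, which encodes paracingulin, fell, with a log2 fold change of -1.34, and the scaffold Magi1 and the polarity gene Pard3 fell with -0.36 and -0.26. Among 24 immunoglobulin-type and synaptic molecules 4 were higher and 3 lower. Mcam (CD146) fell with a log2 fold change of -2.41, from 62.3 to 11.47 CPM, and Cntn2 with -1.93, whereas Cntn1, a contactin that pairs with NCAM-type molecules, rose by 0.55, from 51.75 to 74.1 CPM (edgeR adjusted p = 7.082e-06).

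Regulators of the epithelial-mesenchymal state were tested for 11 genes, of which 1 was higher and 3 lower with PA in Ctr cells. Snai1, a repressor of Cdh1, fell, with a log2 fold change of -2.29, from a low mean of 1.647 CPM, and Esrp1, a splicing factor of epithelial cells, rose by 0.20. Ovol2 fell by -0.43, from a mean of 17.36 CPM in BSA to one of 12.81 CPM with PA (edgeR adjusted p = 0.00308). Cdh1 itself had -0.086. Of 8 sheddases, proteases that cut adhesion molecules from the surface, 1 was higher and 3 lower. Mmp14 fell with a log2 fold change of -1.59 and Adam17 with -0.26, while Mmp15 rose by 0.51.

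Markers of other cell types also moved with PA. Fibroblast and stellate cell markers summed to 141.5 to 575.5 CPM in Ctr BSA and to 12.51 to 68.6 CPM in Ctr PA, and 8 of 9 tested were lower. In the same Ctr cells, of 10 acinar markers 7 were lower and 1 higher, and of 10 ductal markers 4 were lower. Of 8 tested macrophage markers 6 were lower, where 14.5% of all genes were. Of 10 β-cell markers, 3 were higher and 3 lower. In αGlu cells, where 14.2% of all genes were lower, the lower markers were fewer for macrophages, 1 of 8. The interaction term passed for 0 of these 8 and for 0.0% of all genes, so the macrophage response is not shown to differ between the ASOs. In Ctr BSA the macrophage sum was 363.0 CPM in S21 and 78.59 to 170.8 CPM in the other libraries. In αGlu cells the lower markers were 6 of 9 for fibroblasts and stellate cells, 6 of 10 for acinar cells and 4 of 10 for ductal cells. The part of these cell types in the changes of Cadm1 and of the other junction genes was not tested.

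**Figure D5:**
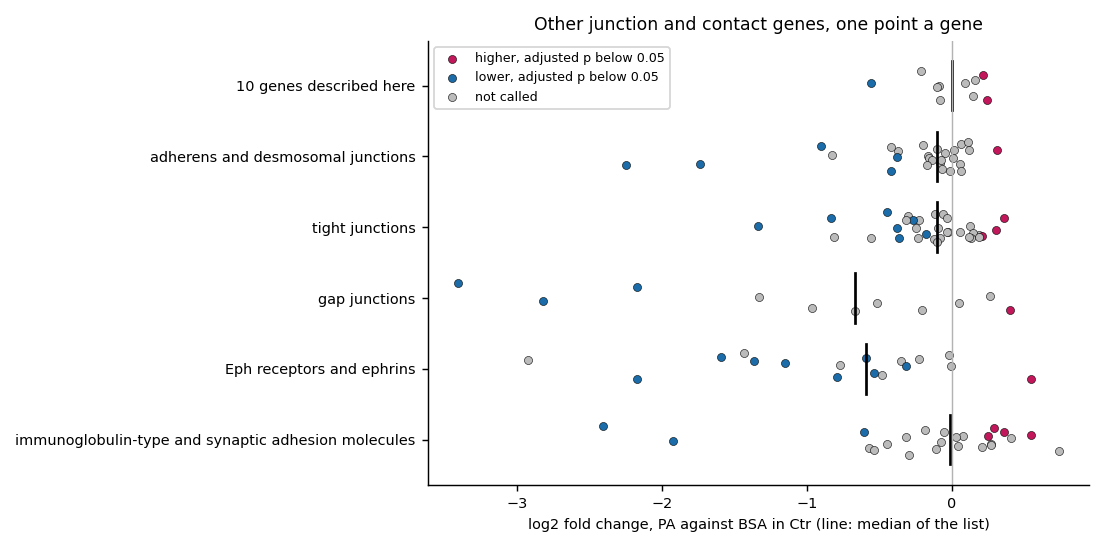
Log2 fold change with PA in Ctr cells of the 10 genes described here and of the genes of 5 junction and contact lists, 1 point a gene, with the median of each row as a line. Points past an adjusted p of 0.05 are coloured by direction, and the 10 genes lie between -0.56 and 0.25.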

How the data were processed

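Of 24 mouse islet cell libraries, the deposited table gives for each gene exon read counts, TPM and RPKM. The authors made these counts, TPM and RPKM values with the QIAGEN RNA-seq Analysis Portal from stranded mRNA libraries. The build was GRCm38 per the submitters' processing notes. For the aligner, annotation and strand setting: not given in the sources used here. Empty cells were read as 0.

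Counts were scaled by TMM, filtered with filterByExpr (minimum count 10) and fitted in edgeR 4.0.16 (R 4.3.3) by the quasi-likelihood test, with terms for the 4 groups and the batch. P-values were adjusted by Benjamini-Hochberg over 15916 genes, and genes were called at an adjusted p below 0.05. Standard errors came from the F statistic. TPM ranked levels between genes, and RPKM gave the same order. Log2 CPM used a prior count of 2. Promoters came from RefSeq and gene positions from GENCODE. Scripts were tested on simulated data. Intervals reflect the spread between libraries.

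The genes, lists and tests were chosen with earlier results of these data known. Named genes were the 10 genes, 3 genes of smallest p per list, the most similar genes and the leading markers. A few genes that this rule takes are not reported here. Alternatives were DESeq2 1.42.0, upper-quartile scaling, no filter, a strict filter (10 counts in 12 libraries), no batch term, 2 groups alone, each batch alone, the study's fold rule and omission of each library. Contrasts averaged over both ASOs, or over BSA and PA, and a fit with sets of 4 consecutive libraries as a replicate block were added after seeing the data.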

Additional observations from a re-analysis of the deposited data

Results flagged for a closer look

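In 1 of 40 groups of 6 libraries (10 genes in 4 groups), a single library lay far from the others. Epha5 was at 1.941 CPM in library S9 of Ctr BSA, where the other 5 libraries had 0.1289 to 0.6011 CPM, and the gap was 0.7394 of the whole range against a critical value of 0.625. Chance alone sets a library apart in about 1 of 20 groups. Markers of Schwann cells and glia summed to 97.59 CPM in S9, against 9.61 to 34.15 CPM in the other 11 libraries of batch 1, and their part in this value was not tested.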

How the results depend on the processing

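The labels number the libraries S1 to S24 without repeats, so the groups share no replicate number. With the 6 assumed sets of 4 consecutive numbers as a replicate block, 5 of the 10 genes passed with PA in αGlu cells, and the Epha5 interaction was -0.0064. The comparisons of αGlu with Ctr and the interaction still called 0 of the 10. Of all genes, 0.0565% passed in this block fit with αGlu in BSA, and 0% with αGlu in PA and in the interaction. After the mean of each group in its batch was removed, libraries of 1 set and different groups correlated across genes at 0.0183 to 0.37 (36 pairs), and those of other sets of the batch at -0.306 to 0.118 (72 pairs). The calls of Cadm1 with PA were kept under each alternative fit, in both ASOs, but its changes are under 2-fold and so fail the fold rule. By the fold rule of the study, 0 of the 10 genes were called with PA in Ctr and 0 in αGlu cells, 1 (Epha5) with αGlu in BSA, 1 (Cldn4) between batches, and 14 of the other junction genes with PA in Ctr cells. In batch 1 alone, 1 of the 10 was called with PA in Ctr and 1 in αGlu cells. With 2 groups alone, 4 were called in αGlu cells. The 36 other junction genes called with PA became 15 without the batch term, 20 in batch 1 and 17 in batch 2. Leaving out each library gave 2 to 5 genes called with PA in Ctr, the highest without S1. For the fits of single batches, of 2 groups, without the batch term or without a library, the share of all genes is not given here. Their counts are therefore not set against all genes. The cause of these shifts was not tested, beyond the smaller number of libraries in the fits of single batches or groups.

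Values that changed sign were small or those of Epha5, and none was called. In batch 1, Epha5 had -0.52 with PA in Ctr and Cldn4 -0.053 with αGlu in PA, where Cldn4 had -0.0090 without the batch term. In batch 2, Nrcam had -0.069 with PA in αGlu cells, Gjd2 -0.0064 with αGlu in BSA, and the Epha5 interaction was -0.21. With 1 library left out, PA in Ctr gave -0.060 to 0.95 for Epha5 and -0.0013 to 0.16 for Efna5, αGlu in PA gave -0.033 to 0.14 for Cldn4, the Epha5 interaction ran from -0.57 (without S9) to 0.46 and its batch term from -0.34 to 0.17. Depth limits Epha5, with 2 to 47 reads a library.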
